A study of Mus musculus with 12 samples.

Results

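The genes described here encode the subunits that carry class I histone deacetylases in 4 corepressor complexes, the histone acetyltransferases, and the BET readers Brd2 and Brd3. They were chosen by symbol from the subunit lists of these complexes, by a rule that uses no measured value but was set with earlier results of these data known, and all 43 were found among the 24346 gene symbols of each deposited table. NuRD gave 11 genes, SIN3 11, CoREST 6, NCoR 4, the acetyltransferases 9 and the BET readers 2. Rbbp4 and Rbbp7 serve in both NuRD and SIN3 and were counted under NuRD. The RNA came from myeloid-derived suppressor cells (MDSCs) sorted from tumors of wild-type female C57BL/6 J mice of 6 to 8 weeks that carried Hepa 1-6 cells, a mouse hepatoma line, in the liver. Mice received vehicle, MS275 (entinostat) or CXD101, both inhibitors of HDAC1, HDAC2 and HDAC3, at 5 mg/kg daily for 10 days from day 10 after inoculation, and tumors were taken on day 21. The monocytic subset (M-MDSCs) was gated as CD11b+Ly-6ChiLy-6G- and the polymorphonuclear subset (PMN-MDSCs) as CD11b+Ly-6CintLy-6G+, with 2 libraries for each of the 6 combinations of subset and treatment. Nothing in the labels says whether the 2 libraries of a group came from separate mice or from pools, so the p-values measure the spread between these libraries only. The model is 1 tumor line in hosts with an otherwise intact genome, and the subsets are defined by surface antigens alone.

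Histone deacetylases of class I remove acetyl groups from histone tails and act almost entirely inside multi-subunit complexes. NuRD couples deacetylation to nucleosome remodeling and reads methylated DNA through MBD proteins, SIN3 is a scaffold recruited by many repressors, CoREST pairs a deacetylase with the demethylase LSD1, and NCoR links HDAC3 to nuclear receptors. Acetyltransferases put the acetyl groups back, and BET proteins bind acetylated lysines through their bromodomains and promote transcription.

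Levels are given as FPKM, fragments scaled to transcript length and library size, as deposited. The FPKM of all symbols summed to 564078 to 596407 in the M-MDSC libraries and to 656932 to 860841 in the PMN-MDSC libraries, where S100a8 and S100a9 together made up 10.19% to 13.68% of the sum with vehicle and 27.33% to 30.86% with an inhibitor. Scaling by the median of gene ratios gave factors of 1.0076 to 1.0173 in the 12 libraries, so the deposited values already had nearly equal medians despite these sums. From the spacing of the low values, about 14.4 to 22.0 reads corresponded to 1 FPKM for a 2 kb transcript, an estimate that assumes annotated transcript lengths close to those the authors used. Replicate libraries correlated at r = 0.9871 to 0.9912 across genes on the log2 scale.

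The labels were compared with marker genes. Summed over the 7 neutrophil markers in the files, FPKM was 10867 to 11602 in vehicle M-MDSCs and 68812 to 94368 in vehicle PMN-MDSCs. The 6 monocyte markers summed to 1597 to 1662 FPKM in vehicle M-MDSCs and 663 to 737 in vehicle PMN-MDSCs, a sum made up mostly of Ly6c2. Among them Ccr2 was higher in vehicle M-MDSCs (142 ± 7.19 against 38.2 ± 3.57 FPKM, SD, n = 2) while Csf1r was not lower in PMN-MDSCs (123 ± 0.486 against 153 ± 10.4). Marker sums also moved with treatment. The monocyte sum was 2633 to 2684 with MS275 and 2291 to 2368 with CXD101 in M-MDSCs and 1606 to 1799 and 1547 to 1757 in PMN-MDSCs, and in both subsets Ly6c2 was higher and Ccr2 and Csf1r lower in every treated library than in vehicle. In M-MDSCs the neutrophil sum was 21704 to 25640 with MS275 and 21197 to 22479 with CXD101, the eosinophil sum (7 markers) went from 160.4 to 197 with vehicle to 389 to 418 and 377 to 408, and the progenitor sum (4 markers) from 4.99 to 5.82 to 49.0 to 49.7 and 16.8 to 17.8. The neutrophil sum was made up mostly of S100a8 and S100a9. With MS275 in M-MDSCs 5 of its 7 markers were higher by limma on log2(FPKM + 1), while Ltf (-1.47) and Camp (-0.98) were lower. In PMN-MDSCs the neutrophil sum was 239982 to 263267 with MS275 and 249585 to 275269 with CXD101, and the progenitor sum went from 21.7 to 21.8 with vehicle to 55.2 to 57.4 and 54.6. Of the 3 progenitor markers tested there with MS275, 2 were higher and 1 lower. The macrophage sum (6 markers) was 145 to 147, 75.2 to 81.3 and 119 to 137 in M-MDSCs and 181 to 191, 128 to 143 and 111 to 123 in PMN-MDSCs with vehicle, MS275 and CXD101. Within it Apoe went the other way. Its log2 changes with MS275 and CXD101 were 0.54 and 0.51 in M-MDSCs and 1.61 and 0.50 in PMN-MDSCs. Adgre1 was also higher with MS275 in M-MDSCs (0.47). The hepatocyte and tumor sum (7 markers, Ttr, Serpina1a and Krt8 at 0) went from 1.69 to 1.899 FPKM with vehicle to 7.48 to 7.83 with MS275 in M-MDSCs, where Krt18 was at 5.54 to 5.73 FPKM against at most 0.0795 with vehicle, and was at most 2.92 in the other groups. Lymphoid markers summed to at most 3.61 FPKM with Ncr1 at 0, and erythroid markers to at most 0.873 with Hbb-bs at 0. The part of these shifts in the results below was not tested, and in sorted bulk RNA a smaller number of cells of a type cannot be told apart from less RNA per cell.

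All 43 genes were detected, and their levels, which FPKM gives per transcript length, spanned from under 1 to over 100 FPKM. The SIN3 scaffold Sin3b had the highest median over the 12 libraries at 87.4 FPKM (range 56.004 to 123), followed by the methyl-CpG reader Mbd2 at 80.0 (47.97 to 135), Brd2 at 74.3 (62.9 to 91.3), the remodeling ATPase Chd4 at 72.4 (64.7 to 80.9) and the histone chaperone Rbbp7 at 71.2 (34.6 to 105). The ranges of these 5 genes overlapped, so their order is not firm. The medians pool subsets and treatments. Rbbp7 was at 92.01 to 105 FPKM in the M-MDSC libraries and 34.6 to 50.3 in the PMN-MDSC libraries, so its median lies between the subsets. At the other end stood the CoREST scaffold Rcor2 at 0.847 (0.212 to 3.61), the acetyltransferase Kat6b at 1.98 (1.08 to 2.87) and the ING subunit Ing2 at 3.96 (3.19 to 4.75). Within the families, Chd3 was the lowest NuRD gene at a median of 7.69 FPKM, Rcor1 the highest CoREST gene at 29.5, Gps2 and Tbl1xr1 the highest and lowest NCoR genes at 55.8 and 12.2, Ep300 the highest acetyltransferase at 28.5, and Brd3 the lower BET gene at 12.5. The Chd3 median reflects its treated libraries, at 7.34 to 8.55 FPKM, while its vehicle libraries were at 0.898 to 1.51.

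The vehicle groups of the 2 subsets were compared with each other. PMN-MDSCs held more mRNA for the coactivator acetyltransferases Ep300 and Crebbp, for the CoREST subunit Phf21a and for Mbd2, and less for the histone chaperones Rbbp4 and Rbbp7 and the NuRD scaffold Mta1. Here and below, a gene rose or fell where limma on log2(FPKM + 1) gave an adjusted p under 0.05 and a fold change above 1.5 on that scale. Genes past the adjusted p alone are described by their values. The study set the same numbers with another tool, and on the scale used here the rule is stricter for low genes. By this rule 4 of the 43 genes were higher in PMN-MDSCs and 3 lower, while 17.2% and 16.8% of all 11662 symbols tested were. By the adjusted p alone 16 were higher and 12 lower, with 30.5% and 31.5% of all symbols, so the share of the 43 genes above the fold limit lay under that of all genes. The 12 include Rcor2, which entered this fit only through its M-MDSC libraries, so its lower value in PMN-MDSCs is not read as a test. The median difference over the 43 genes was 0.16 and over all symbols -0.013 (log2). Scaling all libraries to the same FPKM sum shifted the median of all symbols to -0.17 and gave 2 of the 43 genes higher and 7 lower. Of all 11690 symbols, 1535 were then higher and 2840 lower. Markers of cycling cells, which summed to 874 to 941 FPKM in vehicle M-MDSCs and 350.1 to 387 in vehicle PMN-MDSCs, moved with this comparison, and their part in it was not tested.

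Phf21a, the CoREST subunit that binds histone H3 unmethylated at lysine 4, stood at 3.16 and 3.35 FPKM in the M-MDSC libraries and at 9.44 and 10.03 in the PMN-MDSC libraries. The groups did not overlap, and the difference was 1.33 ± 0.091 (SE), adjusted p = 4.85e-07. Crebbp measured 6.32 and 5.82 against 12.4 and 13.4 FPKM, a difference of 0.98 ± 0.10 (SE), adjusted p = 1.13e-05. Its homolog Ep300, with which it shares many substrates, measured 22.8 and 21.2 against 34.2 and 38.2 (0.69 ± 0.081 (SE), adjusted p = 2.73e-05). Both coactivators were thus higher in every PMN-MDSC library than in any M-MDSC library. Mbd2 was at 65.6 and 64.8 FPKM in M-MDSCs and 94.4 and 113 in PMN-MDSCs (0.66 ± 0.091 (SE), adjusted p = 9.41e-05). That call rested on the second PMN-MDSC vehicle library, without which the difference was 0.53 and under the fold limit, and with equal FPKM sums it was 0.48. Ep300 likewise dropped to 0.52 with equal sums.

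Rbbp7 and Rbbp4 are closely related WD40 chaperones that bind histone H4 for the complexes. Rbbp7 was at 104 and 102 FPKM in M-MDSCs and 50.3 and 46.1 in PMN-MDSCs, a difference of -1.08 ± 0.080 (SE), adjusted p = 9.68e-07. Rbbp4 went the same way, from 58.4 and 54.2 to 36.1 and 34.8 FPKM (-0.65 ± 0.074 (SE), adjusted p = 2.22e-05). Mta1, a scaffold that binds the deacetylase directly, was at 23.1 and 23.7 against 15.998 and 13.8 FPKM (-0.62 ± 0.13 (SE), adjusted p = 0.00182). The groups of all 3 genes were apart, but the Mta1 difference fell to -0.52 without the second PMN-MDSC vehicle library. Rbbp4 overlaps Sync and Rbbp7 overlaps Txlng on the other strand, and whether the counting used strand is not given in the sources used here. Among genes past the adjusted p alone, to be read against 30.5% higher and 31.5% lower over all symbols, 7 of 11 NuRD genes were lower and 2 higher in PMN-MDSCs (calls by the fold limit included), 5 of 11 SIN3 genes were higher and 1 lower, and 4 of 9 acetyltransferases were higher and 2 lower.

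**Figure D1:**
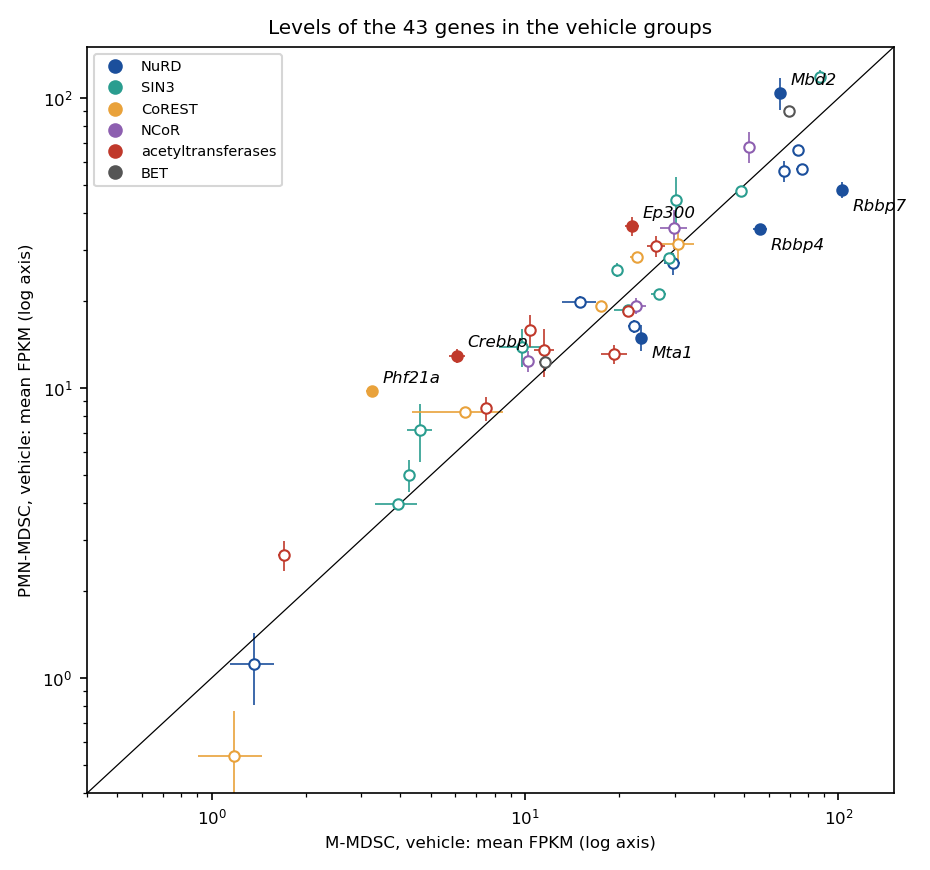
Mean FPKM of the 43 genes with vehicle in M-MDSCs (x axis) and PMN-MDSCs (y axis), both on log axes, with bars for the SD of 2 libraries, a line of equality and colors by complex. Filled, named points are the 7 genes past both thresholds, with Phf21a, Crebbp, Ep300 and Mbd2 above the line and Rbbp4, Rbbp7 and Mta1 under it.

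Each inhibitor was then compared with vehicle within a subset, to ask how the genes of the acetylation machinery responded when its deacetylases were inhibited. Chd3 rose with both inhibitors in both subsets, and no other gene of the 43 did. Mbd3 and Kat2a fell in PMN-MDSCs with both inhibitors, Kat2b and Sap30 fell in M-MDSCs with MS275, Rcor2 rose in M-MDSCs with MS275, and Mta3 and Brd3 rose in PMN-MDSCs with MS275. The other 35 genes did not pass both thresholds in any of these 4 comparisons. Among them, Crebbp, Arid4a and Sin3b passed the adjusted p in M-MDSCs with MS275. Their mean FPKM was 1.63, 1.57 and 1.506 times lower than with vehicle, but on the log2(FPKM + 1) scale they stayed under the fold limit. In M-MDSCs 2 of the 43 genes rose and 2 fell with MS275, against a background of 10.1% and 7.32% of 11078 symbols. With CXD101 Chd3 was the 1 gene of 43 past both thresholds (background 8.13% for both directions together), while 5 were higher and 14 lower at an unadjusted p under 0.05. Counts at an unadjusted p, here and below, were not set against all symbols and are not read as a trend. In PMN-MDSCs, where Rcor2 was under the filter, 3 of 42 rose and 2 fell with MS275 (background 14.6% and 14.2% of 11184 symbols), and 1 rose and 2 fell with CXD101 (background 11.9% and 9.54%). In all 4 comparisons and both directions the share of the 43 genes that passed was under this background. That did not hold for every setting. With 0.1 in place of 1 added to FPKM, 5 of the 43 genes fell with MS275 in M-MDSCs. Of all 11078 symbols 947 did, a smaller share.

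By the adjusted p alone, M-MDSCs with MS275 had 7 genes higher and 16 lower (19.2% and 27.3% of all symbols) and a median change of -0.14 against -0.059 over all symbols. With CXD101 the counts were 4 and 7 (10.9% and 12.2%), with medians of -0.086 and -0.022. PMN-MDSCs had 11 higher and 8 lower with MS275 (25.3% and 28.5%; medians -0.013 and -0.027) and 7 and 8 with CXD101 (21.4% and 23.9%; medians -0.038 and -0.026). In PMN-MDSCs the split depended on the scaling. With equal FPKM sums the median of all symbols moved to -0.34 in both comparisons, and the genes past both thresholds became 1 higher and 9 lower with MS275 and 1 higher and 7 lower with CXD101. Of all 11176 symbols, 926 were then higher and 3519 lower with MS275, and 733 and 3130 with CXD101. The share of the genes that was lower thus stayed under that of all symbols. Chd3 kept its rise and Mbd3 and Kat2a their fall in PMN-MDSCs under this scaling.

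**Figure D2:**
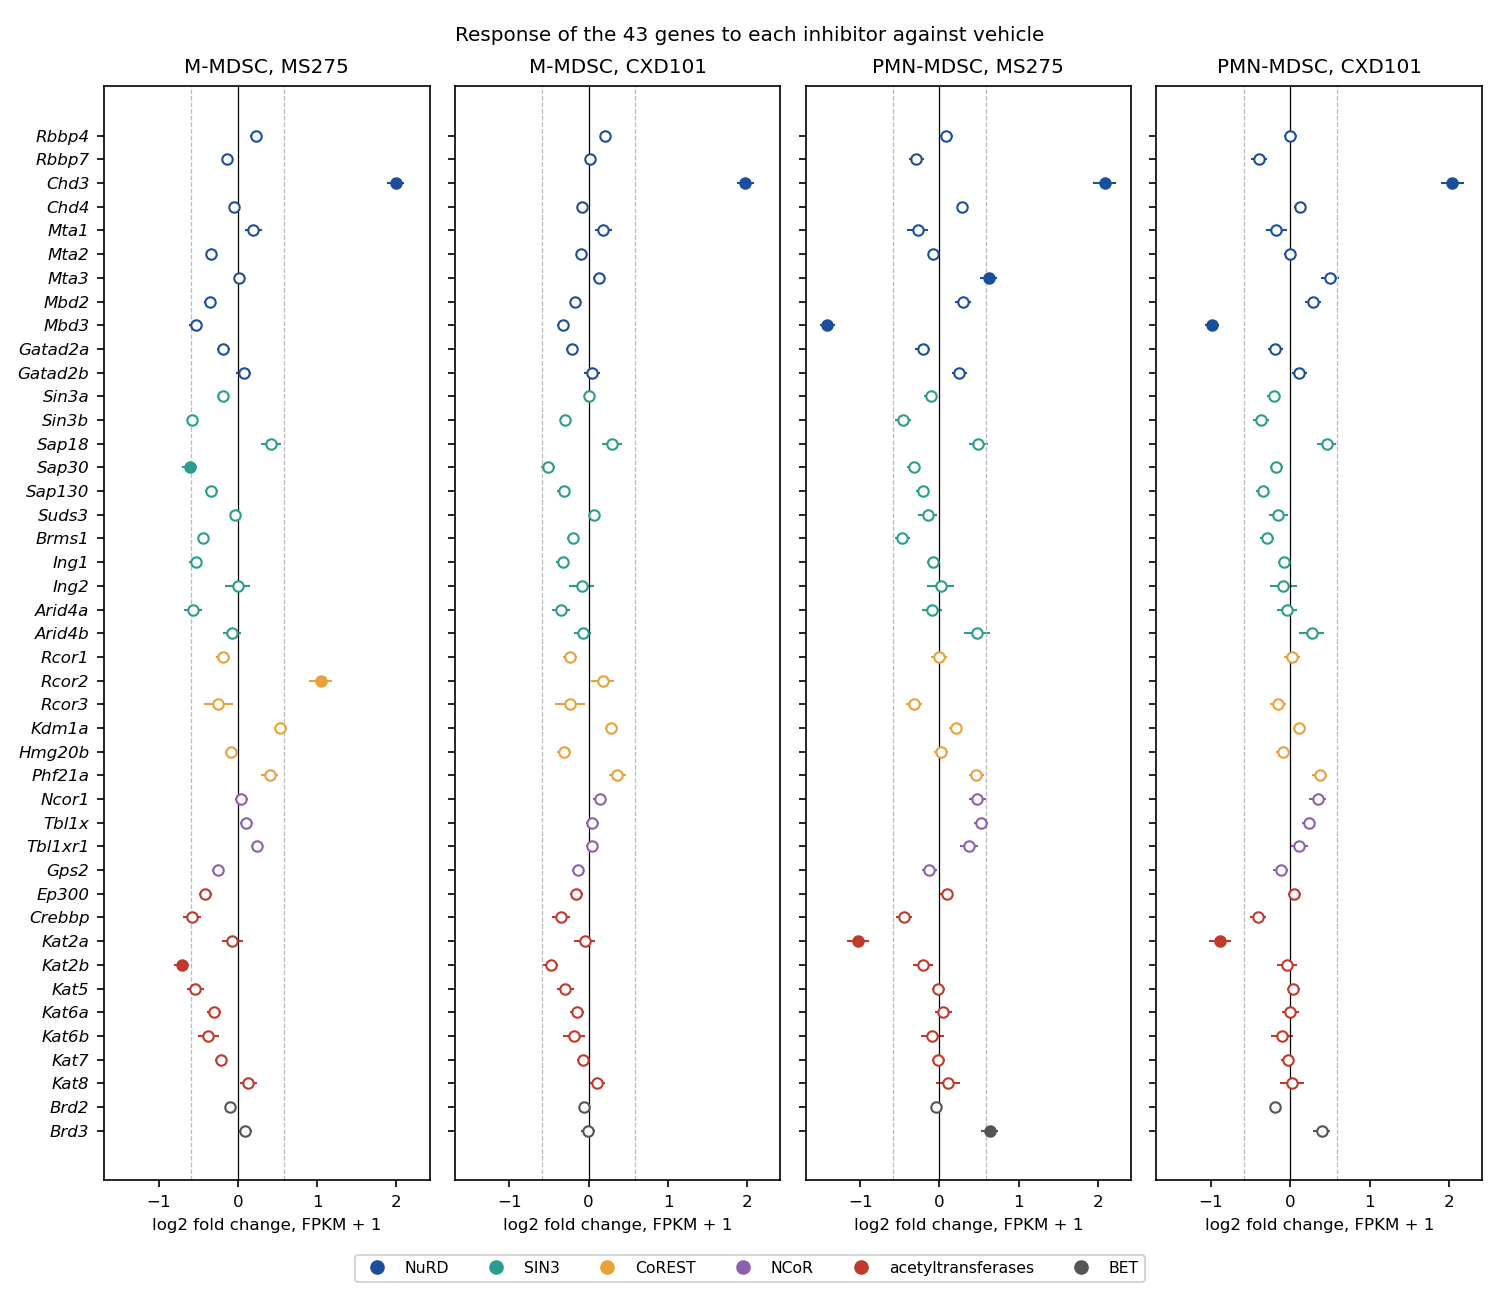
Change of the 43 genes with each inhibitor against vehicle, as log2 fold change of FPKM + 1 (x axis) with SE, in 4 panels by subset and inhibitor, colored by complex. Filled points passed both thresholds, dashed lines mark a 1.5-fold change, and Rcor2 has no point in PMN-MDSCs because it was under the filter. Chd3 sits near 2 in all 4 panels, and Mbd3 and Kat2a are the points farthest to the left in PMN-MDSCs.

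Among NuRD genes, Chd3 was the member with the largest change in each of the 4 comparisons. Chd3 and Chd4 encode alternative ATPases that move nucleosomes for the complex. Chd3, on chromosome 11 from 69343273 to 69369406 on the minus strand (GRCm38), was at 1.21 and 1.51 FPKM in vehicle M-MDSCs, 8.22 and 8.52 with MS275 and 8.05 and 8.502 with CXD101. Its PMN-MDSC libraries held 1.33 and 0.898 FPKM with vehicle, 8.55 and 7.34 with MS275 and 8.01 and 7.38 with CXD101. Every treated library, at 7.34 to 8.55 FPKM, lay above every vehicle library. Mean FPKM was 6.14 and 6.07 times that of vehicle in M-MDSCs and 7.12 and 6.89 times in PMN-MDSCs. On the log2(FPKM + 1) scale, which understates the change of a gene this low in vehicle, the change in M-MDSCs was 1.99 ± 0.11 (SE), adjusted p = 7.17e-06 with MS275 and 1.98 ± 0.11 (SE), adjusted p = 2.73e-05 with CXD101. In PMN-MDSCs it was 2.08 ± 0.15 (SE), adjusted p = 2.89e-05 and 2.04 ± 0.15 (SE), adjusted p = 5.01e-05. Chd4 stayed far higher, at 64.7 to 80.9 FPKM over all libraries, with a change of -0.049 (adjusted p = 0.548) in M-MDSCs and 0.29 (adjusted p = 0.00737) in PMN-MDSCs with MS275, and the latter turned to -0.060 with equal FPKM sums.

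The methyl-CpG-binding subunits Mbd2 and Mbd3 are alternatives in the complex, and they moved apart in PMN-MDSCs. Mbd2 binds methylated DNA, whereas mammalian Mbd3 binds it poorly. Mbd3, on chromosome 10 from 80392539 to 80399550 on the minus strand, went from 59.2 and 52.7 FPKM with vehicle to 19.3 and 21.5 with MS275 and 28.2 and 27.3 with CXD101. The 3 groups were apart, and the changes were -1.41 ± 0.089 (SE), adjusted p = 1.75e-05 and -0.98 ± 0.089 (SE), adjusted p = 1.44e-04, a mean FPKM 2.74 and 2.02 times lower. In M-MDSCs Mbd3 measured 67.2 and 66.6 with vehicle, 43.98 and 48.05 with MS275 and 49.8 and 56.99 with CXD101. Both treated groups lay under vehicle there too, with changes of -0.53 (adjusted p = 9.84e-04) and -0.32 (adjusted p = 0.0218) that did not reach 1.5-fold. Mbd2 measured 53.8 and 47.97 FPKM in M-MDSCs with MS275 and 58.4 and 57.2 with CXD101, under its vehicle values, with changes of -0.35 (adjusted p = 0.003795) and -0.17 (adjusted p = 0.116). In PMN-MDSCs it measured 135 and 119 with MS275 and 126 and 126 with CXD101, above its vehicle values, with changes of 0.30 (adjusted p = 0.0345) and 0.29 (adjusted p = 0.0445). These PMN-MDSC differences turned to -0.052 and -0.060 with equal FPKM sums, so their direction changed with the scaling, whereas that of Mbd3 did not.

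Mta1, Mta2 and Mta3 are alternative scaffolds of NuRD. Mta3 was at 15.7 and 16.97 FPKM in PMN-MDSCs with vehicle, 23.7 and 27.6 with MS275 and 21.7 and 25.7 with CXD101. Both treated groups lay above vehicle, and the change was 0.62 ± 0.11 (SE), adjusted p = 0.002596 with MS275 and 0.50 ± 0.11 (SE), adjusted p = 0.00853 with CXD101. The first was just over the fold limit and fell under it without the first PMN-MDSC vehicle library (0.57), without the second MS275 library (0.51) and with equal FPKM sums (0.28). In M-MDSCs Mta3 measured 22.9 and 21.5, 21.9 and 23.1 and 23.97 and 24.9 FPKM with vehicle, MS275 and CXD101, with MS275 overlapping vehicle and CXD101 just above it (changes 0.018 (adjusted p = 0.854) and 0.13 (adjusted p = 0.227)). Mta1 measured 28.6 and 25.3 and 23.99 and 29.8 FPKM in treated M-MDSCs and 10.9 and 13.4 and 14.1 and 12.02 in treated PMN-MDSCs with MS275 and CXD101, and no change passed the adjusted p. Mta2 was lower with MS275 in M-MDSCs by -0.33 (adjusted p = 0.00215). Rbbp4 measured 66.5 and 65.2 FPKM with MS275 and 66.96 and 63.7 with CXD101 in M-MDSCs, changes of 0.22 (adjusted p = 0.0212) and 0.21 (adjusted p = 0.0463), and 40.3 and 34.9 and 35.5 and 35.5 in PMN-MDSCs, where neither change passed. Rbbp7 measured 94.7 and 92.01 and 105 and 102 FPKM in M-MDSCs and 36.3 and 42.3 and 38.4 and 34.6 in PMN-MDSCs, where its changes were -0.29 (adjusted p = 0.0378) and -0.39 (adjusted p = 0.0139). The GATAD2 linkers, at 21.8 to 30.8 FPKM for Gatad2a and 13.7 to 24.96 for Gatad2b, passed the adjusted p in none of the 4 comparisons.

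Of the 11 SIN3 genes, 6 were lower and 1 higher with MS275 in M-MDSCs by the adjusted p alone, against 27.3% and 19.2% of all symbols, 4 did not pass, and the median change was -0.34. With CXD101 in M-MDSCs 4 were lower and 7 did not pass (median -0.20; 12.2% of all symbols lower). In PMN-MDSCs 3 were lower and 2 higher with MS275 (28.5% and 25.3% of all symbols) and 3 lower and 1 higher with CXD101 (23.9% and 21.4%). The SIN3 sum was 286 ± 9.39 FPKM (SD, n = 2) in vehicle M-MDSCs, 215 ± 3.74 with MS275 and 244 ± 1.89 with CXD101, and 334 ± 9.98, 278 ± 15.4 and 285 ± 1.95 in PMN-MDSCs. Sap30, which bridges the scaffold and the deacetylase, was at 27.8 and 25.6 FPKM in vehicle M-MDSCs, 18.5 and 15.9 with MS275 and 17.8 and 18.98 with CXD101. Both inhibitor groups lay under vehicle. The change was -0.61 ± 0.092 (SE), adjusted p = 0.00106 with MS275 and -0.51 ± 0.092 (SE), adjusted p = 0.00595 with CXD101, the former close to the limit of 1.5-fold. It was under that limit without the first vehicle library (-0.55), without the second MS275 library (-0.50), and with quantile normalization (-0.51), median-of-ratios scaling or equal FPKM sums (both -0.57). In PMN-MDSCs Sap30 measured 20.5 and 21.7, 17.3 and 15.9 and 18.7 and 18.4 FPKM with vehicle, MS275 and CXD101, with the treated libraries under the vehicle ones and changes of -0.33 (adjusted p = 0.0131) and -0.18 (adjusted p = 0.126).

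Sin3b, the scaffold with the higher level, changed by -0.58 (adjusted p = 1.58e-04) with MS275 and -0.30 (adjusted p = 0.00937) with CXD101 in M-MDSCs and by -0.46 (adjusted p = 0.00681) and -0.37 (adjusted p = 0.0215) in PMN-MDSCs, and Sin3a (16.9 to 26.5 FPKM) passed in none. The metastasis suppressor Brms1 (31.4 to 49.4 FPKM) changed by -0.43 (adjusted p = 0.00123) in M-MDSCs and -0.47 (adjusted p = 0.00379) in PMN-MDSCs with MS275. Ing1, which reads methylated histone H3 lysine 4, changed by -0.53 (adjusted p = 0.00133) in M-MDSCs with MS275 and by -0.075 (adjusted p = 0.4399) in PMN-MDSCs. Arid4a (6.09 to 15.4 FPKM) and Sap130 (14.3 to 22.6 FPKM) were also lower in M-MDSCs with MS275, by -0.57 (adjusted p = 0.00402) and -0.34 (adjusted p = 0.0118). Sap18 (4.26 to 7.68 FPKM) went the other way, with 0.41 (adjusted p = 0.02598) in M-MDSCs and 0.49 (adjusted p = 0.0106) in PMN-MDSCs. Suds3 (29.2 to 50.9 FPKM) and Ing2 passed in none of the 4 comparisons, and Arid4b (4.203 to 10.7 FPKM) only with MS275 in PMN-MDSCs.

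Among CoREST genes, Rcor2 set MS275 apart from CXD101. The RCOR proteins are the scaffolds that join LSD1 to the deacetylase, and Rcor2 is the form known from stem cells and neural tissue. Rcor2, on chromosome 19 from 7267325 to 7275225 on the plus strand, was at 1.37 and 0.986 FPKM in vehicle M-MDSCs, 3.33 and 3.61 with MS275 and 1.61 and 1.31 with CXD101. The MS275 libraries stood above all others, and the CXD101 and vehicle libraries overlapped. The change was 1.04 ± 0.15 (SE), adjusted p = 7.09e-04 with MS275, a mean FPKM 2.95 times that of vehicle, and 0.18 ± 0.15 (SE), adjusted p = 0.414 with CXD101. In PMN-MDSCs it measured 0.372 and 0.702 FPKM with vehicle, 0.577 and 0.411 with MS275 and 0.708 and 0.212 with CXD101, overlapping groups that were all too low to be tested within that subset. Progenitor markers, given above, moved with MS275 in M-MDSCs in the same libraries, and their part in the Rcor2 values was not tested.

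No other CoREST gene passed both thresholds with an inhibitor. Rcor1 (25.7 to 34.4 FPKM) passed in none of the 4, Rcor3 (4.67 to 8.29 FPKM) was lower with MS275 in PMN-MDSCs by -0.32 (adjusted p = 0.0285), and Hmg20b (17.2 to 28.9 FPKM) with CXD101 in M-MDSCs by -0.31 (adjusted p = 0.0326). Phf21a was at 4.86 and 4.38 FPKM in M-MDSCs with MS275 and 4.402 and 4.54 with CXD101, above both vehicle libraries, with changes of 0.40 (adjusted p = 0.0161) and 0.36 (adjusted p = 0.0431). In PMN-MDSCs it was at 14.5 and 13.1 and 13.2 and 12.6, again above vehicle, with changes of 0.46 (adjusted p = 0.00475) and 0.37 (adjusted p = 0.0157), all under the fold limit. The PMN-MDSC sizes are on the deposited scale, and equal FPKM sums moved the median of all symbols to -0.34 in both comparisons. Kdm1a, which encodes LSD1, changed by 0.53 (adjusted p = 0.00125) and 0.29 (adjusted p = 0.0403) in M-MDSCs and by 0.21 (adjusted p = 0.0616) and 0.11 (adjusted p = 0.278) in PMN-MDSCs.

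**Figure D3:**
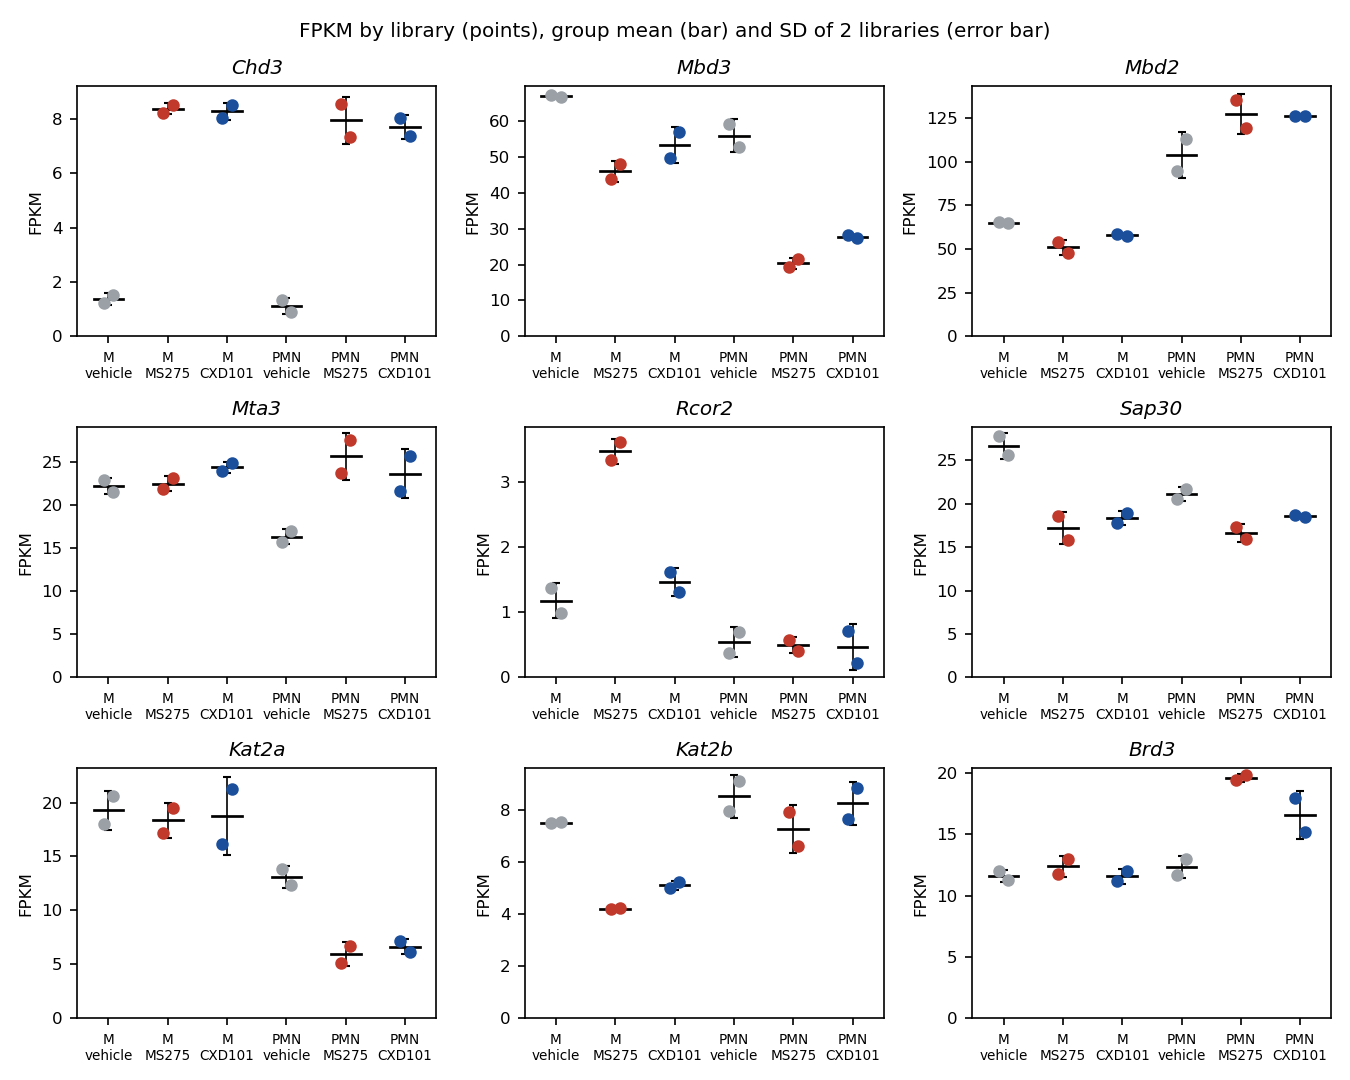
FPKM (y axes, from 0) of 9 genes in each of the 12 libraries, with vehicle in gray, MS275 in red and CXD101 in blue, and with the group mean and the SD of 2 libraries. Chd3 is between 7.34 and 8.55 in every treated library, Mbd3 and Kat2a are low in treated PMN-MDSCs, and Rcor2 is above 3 only in M-MDSCs with MS275.

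For NCoR, 3 of the 4 genes were higher by the adjusted p in PMN-MDSCs with MS275, as were 25.3% of all symbols. Ncor1 encodes the scaffold that activates HDAC3, and Tbl1x and Tbl1xr1 encode WD40 subunits that exchange it for coactivators. In PMN-MDSCs with MS275 the changes were 0.48 (adjusted p = 0.00638) for Ncor1, 0.52 (adjusted p = 0.00169) for Tbl1x and 0.37 (adjusted p = 0.0245) for Tbl1xr1. In M-MDSCs they were 0.044 (adjusted p = 0.696), 0.11 (adjusted p = 0.321) and 0.24 (adjusted p = 0.0368). None reached 1.5-fold. With CXD101 in PMN-MDSCs Ncor1 alone was higher, by 0.35 (adjusted p = 0.0303). Gps2 (43.4 to 73.8 FPKM), a subunit that restrains inflammatory transcription, changed by -0.25 (adjusted p = 0.0241) in M-MDSCs with MS275 and by -0.13 (adjusted p = 0.289) in PMN-MDSCs. Ncor1 overlaps Ttc19 and Pigl on the other strand.

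Among acetyltransferases, Kat2a fell in PMN-MDSCs with both inhibitors and Kat2b in M-MDSCs with MS275. The difference between the subsets was past both thresholds for Kat2a, and not for Kat2b (0.50 (adjusted p = 0.0311) with MS275 and 0.44 (adjusted p = 0.06303) with CXD101). These paralogs, known as GCN5 and PCAF, are alternative catalytic subunits of SAGA and ATAC. Kat2a, on chromosome 11 from 100704746 to 100712465 on the minus strand, was at 13.8 and 12.4 FPKM in vehicle PMN-MDSCs, 5.15 and 6.72 with MS275 and 7.13 and 6.18 with CXD101. Every treated library lay under both vehicle libraries, and the changes were -1.03 ± 0.14 (SE), adjusted p = 6.18e-04 and -0.88 ± 0.14 (SE), adjusted p = 0.00183, a mean FPKM 2.21 and 1.97 times lower. In M-MDSCs it was at 18.004 and 20.6, 17.2 and 19.5 and 16.2 and 21.3 FPKM with vehicle, MS275 and CXD101, groups that overlapped, with changes of -0.069 (95% interval -0.37 to 0.23) and -0.049 (-0.35 to 0.25). Kat2b was at 7.47 and 7.54 FPKM in vehicle M-MDSCs, 4.1995 and 4.22 with MS275 and 4.98 and 5.23 with CXD101. All 3 groups were apart, and the changes were -0.71 ± 0.095 (SE), adjusted p = 5.74e-04 and -0.48 ± 0.095 (SE), adjusted p = 0.00919, of which the second missed the fold limit. In PMN-MDSCs Kat2b was at 7.94 and 9.0995, 7.91 and 6.61 and 7.66 and 8.82 FPKM, with CXD101 overlapping vehicle and MS275 just under it, and changes of -0.21 (adjusted p = 0.216) and -0.043 (adjusted p = 0.809).

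Of the 9 acetyltransferases, 6 were lower by the adjusted p in M-MDSCs with MS275 and none higher (27.3% and 19.2% of all symbols), with a median change of -0.37, and 2 were lower in PMN-MDSCs (28.5% of all symbols). Ep300 was at 17.1 and 15.5 FPKM in M-MDSCs with MS275 and 18.9 and 20.4 with CXD101, both under vehicle, with changes of -0.41 (adjusted p = 0.00439) and -0.16 (adjusted p = 0.206). In PMN-MDSCs it was at 37.2 and 39.9 and 36.9 and 38.1, overlapping vehicle, and neither change passed. Crebbp was at 3.92 and 3.55 and 4.19 and 4.92 FPKM in M-MDSCs with MS275 and CXD101, with changes of -0.58 (adjusted p = 0.00396) and -0.35 (adjusted p = 0.0596). In PMN-MDSCs it was at 9.76 and 8.74 and 9.42 and 9.501, under vehicle as in M-MDSCs, with changes of -0.44 (adjusted p = 0.00749) and -0.41 (adjusted p = 0.0129). The MYST enzyme Kat5, known as TIP60, changed by -0.54 (adjusted p = 0.00459) in M-MDSCs with MS275 and -0.013 (adjusted p = 0.913) in PMN-MDSCs. Kat6a (8.19 to 17.3 FPKM) and Kat7 (17.5 to 21.5 FPKM) were lower in M-MDSCs with MS275 by -0.30 (adjusted p = 0.0198) and -0.22 (adjusted p = 0.0433), whereas Kat6b and Kat8 (10.9 to 15.3 FPKM) passed in none. The acetyltransferase sum was 126 ± 0.612 FPKM (SD, n = 2) in vehicle M-MDSCs, 101 ± 2.31 with MS275 and 113 ± 0.0009 with CXD101, and 152 ± 5.83, 143 ± 1.37 and 143 ± 4.61 in PMN-MDSCs.

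Brd3, which binds acetylated GATA factors and histones, was at 11.7 and 12.98 FPKM in vehicle PMN-MDSCs, 19.4 and 19.9 with MS275 and 17.99 and 15.2 with CXD101. All treated libraries lay above vehicle, and the changes were 0.63 ± 0.11 (SE), adjusted p = 0.00169 and 0.40 ± 0.11 (SE), adjusted p = 0.0175. The MS275 change fell under the fold limit without the first vehicle library (0.56) and with equal FPKM sums (0.30). In M-MDSCs Brd3 was at 11.98 and 11.3, 11.8 and 13.01 and 11.2 and 12.03 FPKM with vehicle, MS275 and CXD101, with overlapping groups and changes of 0.086 and -0.0035. Brd2, whose gene overlaps H2-DMa on the other strand, changed by -0.10 (adjusted p = 0.187) and -0.058 (adjusted p = 0.516) in M-MDSCs and by -0.039 (adjusted p = 0.6295) and -0.19 (adjusted p = 0.0385) in PMN-MDSCs.

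The 2 inhibitors were given at the same dose and schedule, and were compared within each subset over 43 genes in M-MDSCs and 42 in PMN-MDSCs, with p-values adjusted over all symbols. In M-MDSCs Rcor2 was higher with MS275 than with CXD101 (0.86 ± 0.15 (SE), adjusted p = 0.0088996, 95% interval 0.53 to 1.20), against 3.22% of all symbols. No gene was lower by both thresholds in limma (background 1.17%). At an unadjusted p under 0.05, 10 were lower, a count that was not set against all symbols. By the adjusted p alone Rcor2 was higher (background 6.01%) and 2 genes were lower (background 7.73%), Sin3b by -0.28 (adjusted p = 0.0221) and Mta2 by -0.23 (adjusted p = 0.0353). The Rcor2 difference missed the adjusted p without the second MS275 library of M-MDSCs (0.82, adjusted p = 0.0555). In PMN-MDSCs 0 genes passed in either direction (background 0.465% and 0.340%), nor by the adjusted p alone (0.680% and 0.492%). At an unadjusted p under 0.05, 4 were higher and 1 lower, counts that were not set against all symbols. Mbd3 came nearest there, lower with MS275 than with CXD101 by -0.43 (adjusted p = 0.0785) with a 95% interval of -0.63 to -0.22. For 42 of 43 genes in M-MDSCs and 41 of 42 in PMN-MDSCs the 95% interval of the difference between the inhibitors lay inside a 1.5-fold change, the exceptions being Rcor2 and Mbd3. For Chd3 the difference was 0.015 (-0.23 to 0.27) in M-MDSCs and 0.039 (-0.30 to 0.38) in PMN-MDSCs.

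Whether a response differed between the subsets was tested as an interaction, the response in PMN-MDSCs minus that in M-MDSCs, in a fit to all 12 libraries. With MS275, 2 of the 43 genes had a higher response in PMN-MDSCs and 3 a lower one (background 8.65% and 9.48% of 11662 symbols), and by the adjusted p alone 11 were higher and 4 lower (15.9% and 15.1%). Mbd3 and Kat2a responded lower in PMN-MDSCs by -0.88 ± 0.12 (SE), adjusted p = 5.19e-04, and by -0.96 ± 0.21 (SE), adjusted p = 0.00607. The third gene counted as lower was Rcor2, which entered this fit only through its M-MDSC libraries and stayed under 1 FPKM in all PMN-MDSC libraries, so that its lower response there followed from the filter and is not read as a test. Rcor2 is also among the 4 genes lower by the adjusted p alone. Mbd2 and Mta3 responded higher, by 0.65 ± 0.13 (SE), adjusted p = 0.00369, and by 0.60 ± 0.14 (SE), adjusted p = 0.00782. With CXD101, Mbd3 (-0.66 ± 0.12 (SE), adjusted p = 0.00359) and Kat2a (-0.83 ± 0.21 (SE), adjusted p = 0.0155) again responded lower (background 6.59%), and 0 genes responded higher in limma (background 7.31%). At an unadjusted p under 0.05, 8 were higher, a count that was not set against all symbols. The Chd3 response did not pass in this test, at 0.093 (95% interval -0.30 to 0.49) with MS275 and 0.070 (-0.33 to 0.46) with CXD101.

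Several of these interactions depended on single libraries or on the scaling. For Mbd2 with MS275 the value was 0.57 without the second MS275 library of M-MDSCs, 0.52 without the first vehicle library of PMN-MDSCs and 0.56 without the first MS275 library of PMN-MDSCs, all under the fold limit, as it was with quantile normalization (0.53). That of Mta3 was 0.56 without the first vehicle or the first MS275 library of M-MDSCs, 0.55 without the first vehicle library of PMN-MDSCs and 0.49 without the second MS275 library of PMN-MDSCs. Kat2a with CXD101 missed the adjusted p without the first vehicle library (0.0584) or the second CXD101 library (0.0559) of M-MDSCs and without the first vehicle library (0.0506) or the second CXD101 library (0.0565) of PMN-MDSCs. Mbd3 with CXD101 was -0.57 without the second CXD101 library of M-MDSCs and -0.58 without the first vehicle library of PMN-MDSCs. The MS275 interactions of Mbd3 and Kat2a passed both thresholds without each library in turn. With equal FPKM sums, which moved the median interaction of all symbols to -0.33 with MS275 and -0.30 with CXD101, the genes past both thresholds were 0 higher and 5 lower with MS275 and 0 higher and 4 lower with CXD101. Of all 11690 symbols, 374 were then higher and 2994 lower with MS275, and 371 and 2460 with CXD101.

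**Figure D4:**
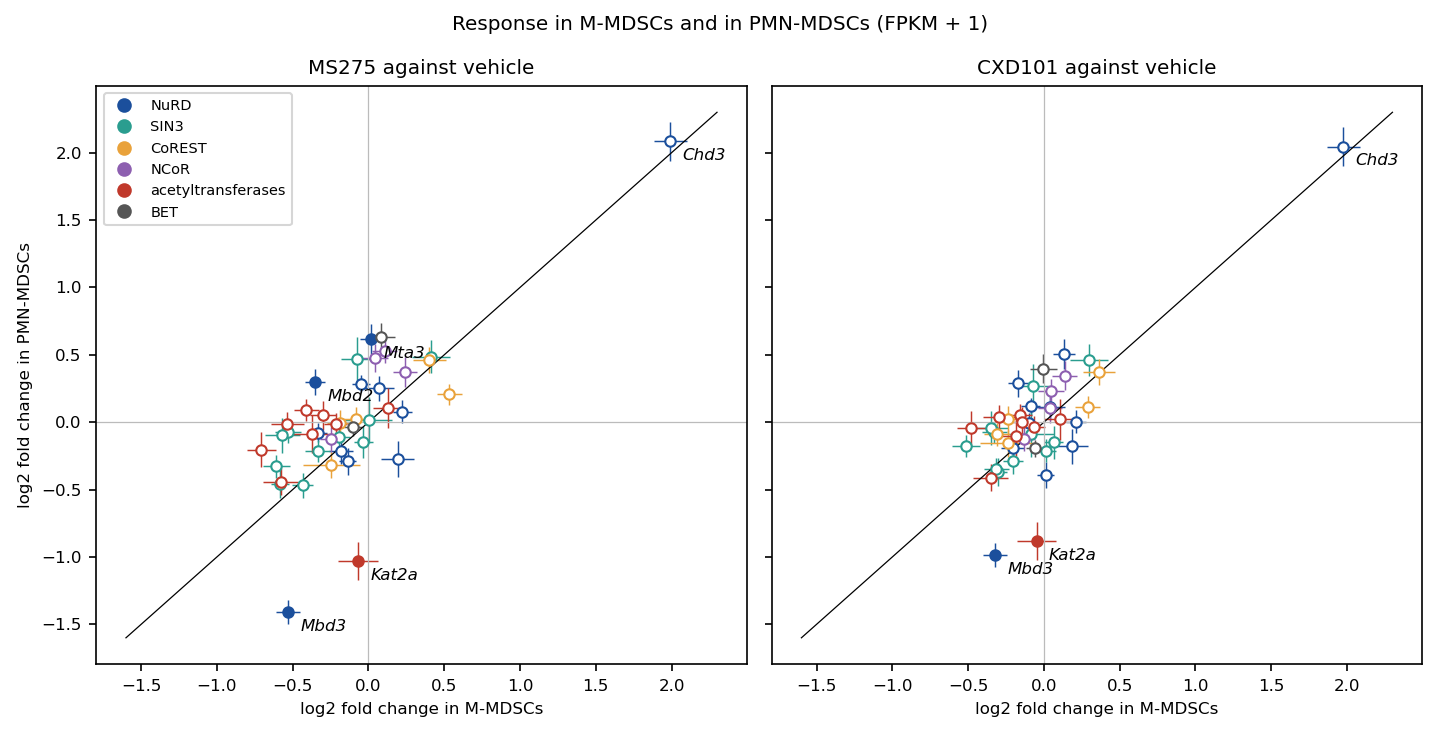
Change with an inhibitor in M-MDSCs (x axis) and in PMN-MDSCs (y axis), as log2 fold change of FPKM + 1 with SE, for the 42 genes tested in both subsets, with MS275 on the left and CXD101 on the right. The line marks equal responses, and filled points passed both thresholds of the interaction test. Chd3 lies near the line at about 2 on both axes, while Mbd3 and Kat2a lie under it.

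Ratios between paralogs were followed because they compare alternative subunits within a library and depend little on its scaling. The log2 ratio of Chd4 to Chd3 was 4.99 ± 0.173 (SD, n = 2) in vehicle M-MDSCs, 2.95 ± 0.0598 with MS275 and 2.93 ± 0.0225 with CXD101, and 4.99 ± 0.252, 3.20 ± 0.140 and 3.07 ± 0.011 in PMN-MDSCs. Chd4 thus remained the more abundant ATPase in all 12 libraries, by a margin that was smaller in every treated library. For Mbd3 to Mbd2 the ratio was 0.0381 ± 0.0035, -0.142 ± 0.203 and -0.116 ± 0.156 in M-MDSCs and -0.876 ± 0.297, -2.58 ± 0.229 and -2.15 ± 0.0312 in PMN-MDSCs. The 4 treated PMN-MDSC libraries stood apart from all others, between -2.75 and -2.13. The ratio of Kat2a to Kat2b moved in opposite directions, from 1.25 to 1.89 and 1.68 in M-MDSCs and from 0.57 to -0.26 and -0.27 in PMN-MDSCs with MS275 and CXD101.

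**Figure D5:**
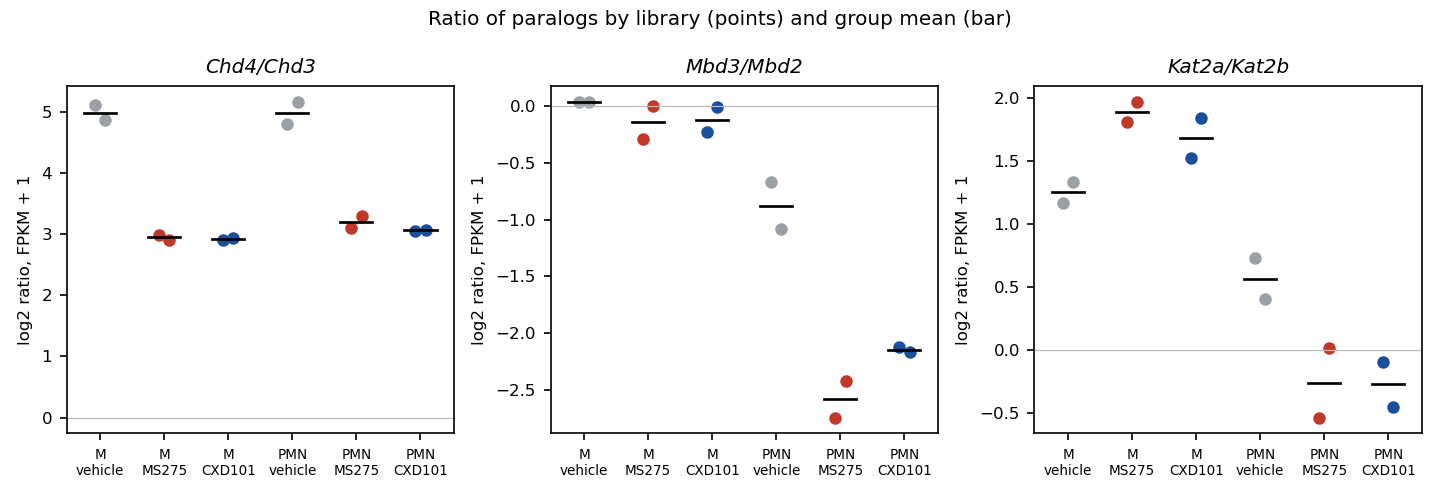
Log2 ratio of FPKM + 1 (y axes) for Chd4 over Chd3, Mbd3 over Mbd2 and Kat2a over Kat2b in the 12 libraries (points) with group means (bars), vehicle in gray, MS275 in red and CXD101 in blue. The Chd4/Chd3 ratio is near 5 with vehicle and near 3 with an inhibitor in both subsets, Mbd3/Mbd2 is under -2 only in treated PMN-MDSCs, and Kat2a/Kat2b moves up in M-MDSCs and down in PMN-MDSCs.

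Promoter sequence of the members is described, with 3 windows shown in full. These are of Mbd3 and Kat2a, which fell in PMN-MDSCs, and of Rcor2, which rose in M-MDSCs with MS275. RefSeq windows of 250 bases before to 50 bases after the start site (GRCm38.p6) were found for 36 of the 43 genes, 54 windows in all, and none for Chd3, Mta3, Mbd2, Sap130, Brms1, Arid4a or Kat6a. The GC box GGGCGG, searched on both strands, was in 42 of the 54 windows (77.8%) and in 35.7% of all 32851 windows. The median window of the members held 26.5 CpG dinucleotides against 7 over all windows. The windows of all 27025 genes were not limited to genes detected here, whereas all 43 members were detected. A contrast with them is therefore not read as particular to these families. Genes with several windows were counted more than once. CCAAT was in 48.1% of the members' windows against 37.4%, CCGGAAG in 16.7% against 8.9%, TATAAA in 11.1% against 13.6%, CACGTG in 5.6% against 7.2%, and TGACGTCA in 0 of 54 against 1.8%. A match describes the letters in the window and is not a binding site. The windows of the 3 genes follow, 5′ to 3′ on the strand of the gene with the start site at base 251 and with GGGCGG in capitals: Mbd3 at chr10:80399482-80399781 (minus), Kat2a at chr11:100712418-100712717 (minus) and Rcor2 at chr19:7267144-7267443 (plus).
Mbd3: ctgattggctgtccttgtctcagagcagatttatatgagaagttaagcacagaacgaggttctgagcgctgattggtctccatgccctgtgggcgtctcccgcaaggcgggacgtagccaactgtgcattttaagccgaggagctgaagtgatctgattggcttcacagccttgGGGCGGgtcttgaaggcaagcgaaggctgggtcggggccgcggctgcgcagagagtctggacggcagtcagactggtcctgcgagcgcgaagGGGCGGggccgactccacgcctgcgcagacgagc
Kat2a: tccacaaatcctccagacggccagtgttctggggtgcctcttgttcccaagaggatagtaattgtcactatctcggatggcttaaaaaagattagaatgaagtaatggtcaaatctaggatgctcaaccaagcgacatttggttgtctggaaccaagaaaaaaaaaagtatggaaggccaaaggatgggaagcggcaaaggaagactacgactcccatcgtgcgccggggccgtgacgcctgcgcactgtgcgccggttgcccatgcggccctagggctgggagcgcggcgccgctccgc
Rcor2: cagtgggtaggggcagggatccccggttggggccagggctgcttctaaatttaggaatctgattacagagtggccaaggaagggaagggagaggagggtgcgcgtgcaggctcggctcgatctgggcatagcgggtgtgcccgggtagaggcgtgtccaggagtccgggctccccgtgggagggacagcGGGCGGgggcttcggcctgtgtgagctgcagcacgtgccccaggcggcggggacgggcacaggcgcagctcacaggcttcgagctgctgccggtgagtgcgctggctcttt
Mbd3 held 2 copies of the motif, Rcor2 1 and Kat2a 0 in this window. A link between the motif and the responses was not tested.

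Other genes of the same pathways were read from lists of 24 further corepressor subunits, 36 partners of acetyltransferases and other acetyltransferases, and 31 other acetyl-lysine readers. In M-MDSCs with MS275, 1 corepressor subunit, 4 acetyltransferase genes and 1 reader fell, and 0, 1 and 1 rose, against 7.32% of all symbols that fell and 10.1% that rose. The falls with the largest size were Coro2a (-0.72), an actin-binding partner of NCoR, Epc1 (-0.71), a scaffold of the TIP60 complex, and the circadian acetyltransferase Clock (-0.68), and the rises were Sp140 (0.63) and Jade2 (0.62). With CXD101 in M-MDSCs 0 of these genes passed both thresholds in limma, and by the adjusted p alone 3 corepressor subunits, 1 acetyltransferase gene and 2 readers were higher and 1, 4 and 3 lower, with 10.9% and 12.2% of all symbols. At an unadjusted p under 0.05, 5, 1 and 3 were higher and 2, 8 and 5 lower, counts that were not set against all symbols. In PMN-MDSCs with MS275, 4 corepressor subunits, 4 acetyltransferase genes and 2 readers fell and 1, 1 and 3 rose (14.2% and 14.6% of all symbols). The leading rises were the speckled-protein readers Sp140 (1.92 ± 0.10 (SE), adjusted p = 8.61e-06), Sp110 (1.42) and Sp100 (1.28), and the leading falls Epc1 (-0.97 ± 0.10 (SE), adjusted p = 1.87e-04), Meaf6 (-0.79), a shared subunit of MYST complexes, and Hat1 (-0.79), which acetylates newly made histone H4. With CXD101 in PMN-MDSCs, 2, 3 and 0 fell and 2, 1 and 3 rose (9.54% and 11.9% of all symbols), led by Sp140 (1.52), Sp110 (1.18) and Sp100 (1.05) among the rises and Meaf6 (-0.94), Hat1 (-0.66) and Fam60a (-0.66), a SIN3 subunit, among the falls.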

How the data were processed

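RNA-seq was analysed for M-MDSCs and PMN-MDSCs sorted from liver tumors of mice given vehicle, MS275 or CXD101, with 2 libraries per group. Libraries were made with a stranded mRNA kit and read as 101-base single ends. The authors deposited 1 table of FPKM values per library. The submitters' processing notes name TopHat2 2.1.1, Bowtie2 2.2.8, SAMtools 0.1.18, Cuffdiff 2.2.1 and the build mm10, while the annotation and the strand setting are not given in the sources used here. Counts were not used here, so a count test was not possible, and an FPKM of 0 can be a failed estimate.

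The 43 genes and all gene lists were chosen with earlier results of these data known. A symbol entered a fit where 2 or more of its libraries reached 1 FPKM. log2(FPKM + 1) was fitted with limma 3.58.1 (R 4.3.3; lmFit, contrasts and eBayes with trend) separately for the 6 libraries of each subset, and jointly over the 12 libraries for the subset difference and the interactions. p-values were two-sided and adjusted over all symbols tested (Benjamini-Hochberg). With 2 libraries per group, an exact permutation test of a single gene could not reach 0.05, so none was run. Fold changes are on the log2(FPKM + 1) scale, which understates changes of low genes. Tables and figures were made with Python 3.11.15, pandas 2.3.3 and matplotlib 3.10.9. The fitting code was tested on simulated data. Gene positions are from GENCODE M21 (GRCm38), and promoter windows are from RefSeq.

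Values in every library are given for members past both thresholds under an inhibitor or in an interaction, and for the 5 largest in each direction among those past both between the vehicle groups. From the pathway lists the 3 largest in each direction are named. Jade1, Jade2 and Jade3 were matched under their other symbols where needed and Sgf29 as Ccdc101, while the markers Ly6g and Hbb-bt are not used here. Alternatives were to add 0.1 in place of 1, to drop the filter or raise it to 5 FPKM, to scale by medians of ratios or by quantiles, to block on the replicate number, and to leave out each library. Scaling to equal FPKM sums was added after seeing the data.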

Additional observations from a re-analysis of the deposited data

Results flagged for a closer look

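The results here are responses to an inhibitor that differed between PMN-MDSCs and M-MDSCs in the interaction test of limma, as the response in PMN-MDSCs minus that in M-MDSCs on the log2(FPKM + 1) scale. With MS275 they were Mbd3 at -0.88 ± 0.12 (SE), adjusted p = 5.19e-04, and Kat2a at -0.96 ± 0.21 (SE), adjusted p = 0.00607, both lower in PMN-MDSCs. Mbd2 at 0.65 ± 0.13 (SE), adjusted p = 0.00369, and Mta3 at 0.60 ± 0.14 (SE), adjusted p = 0.00782, were higher in PMN-MDSCs. With CXD101 they were Mbd3 at -0.66 ± 0.12 (SE), adjusted p = 0.00359, and Kat2a at -0.83 ± 0.21 (SE), adjusted p = 0.0155. Over 19 alternatives the Mbd2 value ranged from 0.26 to 0.78 and that of Mta3 from 0.23 to 0.71. Each lost a threshold in 5 of them. With CXD101 Kat2a lost a threshold in 4 and Mbd3 in 2, while Mbd3 and Kat2a with MS275 lost it in 0. All libraries of treated PMN-MDSCs lay under vehicle for Mbd3 and Kat2a, as did all treated M-MDSC libraries for Mbd3, while those of Kat2a overlapped vehicle in M-MDSCs. Groups of 2 libraries are too small for a test of outlying samples, so none was made.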

How the results depend on the processing

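The 27 values of members past both thresholds (Rcor2 in the interaction left out) were recomputed under 427 combinations of value and alternative: 396 stayed past both thresholds in the same direction, 31 kept the direction and lost a threshold, and 0 reversed. Of the 240 that left out 1 library 21 lost a threshold, and of the 187 others 10 did. Counts of members past both thresholds with equal FPKM sums were 1 lower for MS275 in M-MDSCs, 1 higher and 9 lower for MS275 and 7 lower for CXD101 in PMN-MDSCs, 2 higher and 7 lower between the subsets, and 0 higher and 5 lower (MS275) and 4 lower (CXD101) in the interactions. Over all symbols, 710 of 11088 were lower for MS275 in M-MDSCs, and the other counts over all symbols are given above. A pseudocount of 0.1 gave 5 lower for MS275 in M-MDSCs and 7 higher in PMN-MDSCs between the subsets, against 947 of 11078 and 2286 of 11662 symbols. Median-of-ratios scaling gave 1 lower for MS275 in M-MDSCs, against 712 of 11081 symbols. A filter of FPKM of at least 5 removed Rcor2 by construction and so gave 1 higher for MS275 in M-MDSCs and 0 higher for MS275 against CXD101. Of all 8531 symbols, 579 and 158 were higher with that filter.

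With each library left out, the counts higher and lower ranged over 2 to 2 and 2 to 5 for MS275 and 1 to 1 and 0 to 0 for CXD101 in M-MDSCs, 0 to 1 and 0 to 0 for MS275 against CXD101 there, 2 to 6 and 2 to 4 for MS275 and 1 to 2 and 2 to 2 for CXD101 in PMN-MDSCs, 0 to 0 in both directions for MS275 against CXD101 there, 3 to 8 and 3 to 4 between the subsets, 1 to 7 and 3 to 4 for the MS275 interaction and 0 to 1 and 0 to 2 for the CXD101 interaction. The highest counts came without the second vehicle or the first MS275 library of M-MDSCs (5 lower), without the second vehicle library of PMN-MDSCs (6 higher, and 7 higher in the MS275 interaction), and without the first vehicle library of either subset (8 higher between subsets). The CXD101 interaction had 0 lower without the second CXD101 library of M-MDSCs or the first vehicle library of PMN-MDSCs, and the cause was not tested.

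Same-numbered libraries deviated from their group means with correlations of -0.1106 to 0.1532, so no pairing by number showed in these values. With 2 libraries per group this cannot exclude that same-numbered libraries shared mice or pools, which the labels do not say. The joint fits took all libraries as independent. A replicate block left every count as it was, with 2 higher and 2 lower for MS275 in M-MDSCs and 3 higher and 2 lower in PMN-MDSCs.

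With a pseudocount of 0.1 the Chd4 to Chd3 ratio was 5.67, 3.08 and 3.06 in M-MDSCs with vehicle, MS275 and CXD101 and 5.79 and 3.21 in PMN-MDSCs with vehicle and CXD101, Mbd3 to Mbd2 was -2.18 in PMN-MDSCs with CXD101, and Kat2a to Kat2b 2.09 in M-MDSCs with MS275. Median-of-ratios scaling gave SIN3 sums of 240.7 and 281 FPKM with CXD101 in M-MDSCs and PMN-MDSCs, acetyltransferase sums of 125 and 111 in M-MDSCs with vehicle and CXD101 and 141 in PMN-MDSCs with MS275, and an NCoR sum of 142 in PMN-MDSCs with CXD101. Genes near 1 FPKM, such as Rcor2, rest on few reads. The 2 libraries per group limit the precision of every value.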
